A study of Mus musculus with 20 samples.

Results

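The RNA levels of 10 interferon-stimulated genes, Isg15, Ifit1, Ifit2, Ifit3, Irf7, Oasl2, Rsad2, Mx1, Usp18 and Ifi44, were compared across MYC-driven mouse liver tumors and control livers. The genes were taken by symbol from both count tables, which list 50559 genes each; all 10 were found, and all 10 passed the filter on low counts that left 14333 genes to test. The study asked whether FGF19, a gut hormone that represses bile acid synthesis, and its engineered analog Aldafermin cooperate with MYC in liver cancer. Each of the 4 groups held 5 libraries, 1 per mouse: Aldafermin+MYC, FGF19+MYC and sgTrp53+MYC tumors, and livers without tumors. All mice were wild-type C57BL/6J females, young adults at injection, and each tumor was a single snap-frozen nodule. The study took livers at signs of tumors or at set endpoints, so the time from injection to harvest could differ between groups. In the tumor groups, hydrodynamic gene transfer, a rapid large-volume tail vein injection that brings plasmids into hepatocytes, delivered MYC behind an EF1a promoter on a Sleeping Beauty transposon together with the transposase SB100X. The partner of MYC was a transposon encoding Aldafermin or human FGF19, or a CRISPR/Cas9 plasmid with a guide against Trp53, the gene of p53. The study describes the control livers as injected with a red fluorescent protein plasmid, whereas the labels call them untreated. The labels of the sgTrp53+MYC tumors give no treatment, so their group was taken from the titles. All 3 tumor groups carry MYC, and none of the 4 groups received MYC alone.

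Interferons are secreted proteins that warn cells of infection or of misplaced nucleic acids. Type I and type III interferons bind receptors that activate the kinases JAK1 and TYK2, and the resulting transcription factor complex, named ISGF3, which contains STAT2 and IRF9, binds a DNA element called the ISRE in front of its target genes. In liver, hepatocytes and Kupffer cells both respond to type I interferon. The 10 genes fall into 4 roles. Ifit1, Ifit2 and Ifit3 (proteins that bind foreign RNA or each other), Oasl2, Rsad2 (viperin, which makes a chain-terminating nucleotide), Mx1 (a GTPase, defective in C57BL/6 mice through a deletion in the gene) and Ifi44 are antiviral effectors. Isg15 encodes a ubiquitin-like protein. Irf7 encodes the transcription factor that amplifies interferon production. Usp18 encodes the protease that removes ISG15 from proteins and that also blocks the type I interferon receptor, so that it acts as a brake.

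The genes lie on 8 chromosomes of GRCm39 (GENCODE M39 annotation, coordinates of the whole gene), and all are protein coding. The Ifit genes are neighbours on the plus strand of chromosome 19, Ifit2 at chr19:34527932-34554524, Ifit3 at chr19:34560899-34566443 and Ifit1 at chr19:34618271-34632174. On the plus strand lie also Usp18 (chr6:121222848-121247877) and Oasl2 (chr5:115034997-115050295). On the minus strand lie Isg15 (chr4:156283883-156285303), Irf7 (chr7:140842619-140846398), Rsad2 (chr12:26492745-26506451), Mx1 (chr16:97248235-97264107) and Ifi44 (chr3:151436559-151455625). Reads could be shared with a copy in Ifit3, where 15.3% of the 150-base stretches of the transcript also occur in Ifit3b, and in Ifit1, where 0.426% occur in Ifit1bl2. In the other 8 genes no 150-base stretch occurs in a transcript of another gene. On the opposite strand, Irf7 overlaps the end of Phrf1, and Ifit1 overlaps Ifit1bl2. Usp18, Isg15 and Mx1 overlap the lncRNAs Gm44148, Gm46878 and Gm60893 on the opposite strand. Over all libraries Phrf1 had 46056 counts against 27360 of Irf7, and Gm44148 had 110 against 27885 of Usp18. Ifit1bl2 had 144 against 6484 of Ifit1, and Gm46878 had 9 against 7890 of Isg15. Gm60893 was not among the counted genes. These are counts of whole genes. Phrf1 ends at chr7:140842681, so that it shares only a short stretch with Irf7. Whether the counting used the strand is not given in the sources used here; without strand, reads from such partners cannot be told apart.

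The ISRE core was searched as GAAA, any 2 bases and GAAA again, on both strands. The window was the 250 bases before the start of each gene's canonical transcript, which can lie inside the coordinates of the whole gene. It was present in 5 of the 10 genes (50%), in 21 of 64 other classical interferon-stimulated genes (32.8%) and in 723 of the 21769 windows of all protein-coding genes (3.32%). In RefSeq's promoter windows, which use the older build GRCm38.p6 and list 8 of the 10 genes, it was present in 4 of the 8 and in 1079 of all 27025 genes (3.99%). These windows also run past the start, and a gene counted where any of its starts had a match. The 3.99% and the 3.32% are therefore not on the same footing. These 5 stretches of GRCm39 are shown because they hold a match to the letters of the core. They run 5′ to 3′ on the strand of the gene, end before the transcription start, and have each match in capitals (TTTC first where the match is on the other strand).
Isg15: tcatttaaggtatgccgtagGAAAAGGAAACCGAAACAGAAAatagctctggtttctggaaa
Ifit1: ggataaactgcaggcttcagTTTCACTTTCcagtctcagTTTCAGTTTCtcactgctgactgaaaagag
Ifit3: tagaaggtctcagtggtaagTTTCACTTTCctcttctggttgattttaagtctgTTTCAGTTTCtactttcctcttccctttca
Rsad2: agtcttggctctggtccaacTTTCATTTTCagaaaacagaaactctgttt
Usp18: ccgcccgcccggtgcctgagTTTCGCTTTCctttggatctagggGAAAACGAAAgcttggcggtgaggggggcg
They lie at chr4:156285312-156285373 (Isg15), chr19:34618165-34618233 (Ifit1), chr19:34560753-34560836 (Ifit3), chr12:26506542-26506591 (Rsad2) and chr6:121222762-121222835 (Usp18). Isg15 held 3 overlapping matches in 1 run, Ifit1, Ifit3 and Usp18 held 2 separate matches each, and Rsad2 held 1. Ifit2, Irf7, Oasl2, Mx1 and Ifi44 held none in this window. The windows of Ifit2 (chr19:34527795-34528044), Usp18 (chr6:121222607-121222856) and Mx1 (chr16:97264107-97264356) lay partly inside the gene, by only a few bases in Usp18 and Mx1. Fewer than 250 bases before these genes were therefore searched. The match is a description of the letters and says nothing of binding.

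Levels are given in CPM (read counts of a gene relative to the reads on all genes), scaled between libraries by the TMM method. Depth was 18004977 to 66354724 reads on genes per library, deepest in the sgTrp53+MYC tumors, which stood alone in a table of their own with more ambiguous reads (11.1% to 14.6%) than the other libraries (3.03% to 6.30%), so that group and table cannot be told apart. Trp53 RNA was at 18.7 to 79.9 CPM in sgTrp53+MYC tumors, below the 90.8 to 176 CPM of the other tumors, and at 28.8 to 36.4 CPM in livers; a guide that changes the coding sequence need not change the RNA level. Hepatocyte markers were present in every group, and the tumor markers Afp and Gpc3 summed to 455 CPM or more in every tumor library against 7.03 CPM or less in liver. In bulk tissue, fewer cells of a type and less RNA per cell cannot be told apart.

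Usp18 was the highest of the 10 genes in CPM per kilobase of exon in FGF19+MYC and sgTrp53+MYC tumors, at 12.8 ± 1.96 and 12.6 ± 2.72 (SD, n = 5), ahead of Isg15 at 10.7 ± 7.12 and 11.3 ± 9.34. In Aldafermin+MYC tumors Isg15 led with 13.4 ± 10.2 CPM per kilobase, before Usp18 with 9.84 ± 2.62. The levels of these neighbours in the order did not differ beyond their spread. In liver the order began with Irf7 (20.6 ± 4.74 CPM per kilobase) and Isg15 (19.9 ± 5.54), which did not differ beyond their spread either, followed by Ifit3 (8.44 ± 1.88) and Usp18 (6.02 ± 0.662). Mx1, Ifi44 and Ifit2 were at 1.31 CPM per kilobase or less in liver, and Mx1 was lowest with 0.626 ± 0.185.

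Apart from Usp18, the levels within each tumor group were spread widely, and the same libraries were high for most genes. Isg15, the ubiquitin-like modifier, was measured at 5.71, 4.37, 23.5, 12.9 and 6.06 CPM in Aldafermin+MYC replicates 1 to 5. It was at 3.68, 16.7, 6.33, 3.81 and 11.2 CPM in FGF19+MYC tumors and at 5.06, 17.2, 16.2, 1.78 and 3.82 CPM in sgTrp53+MYC tumors. The livers were at 16.1, 14.4, 9.54, 16.1 and 21.6 CPM. In each tumor group a pair of libraries lay within or above the liver range and the others below it, so that every tumor group overlapped the livers.

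Irf7, the amplifier of interferon production, had the same high libraries. Its CPM values were 21.3, 13.3, 71.5, 46.0 and 9.01 in Aldafermin+MYC tumors. They were 18.8, 41.9, 23.8, 16.7 and 38.1 in FGF19+MYC tumors, and 12.1, 52.7, 49.9, 7.11 and 12.1 in sgTrp53+MYC tumors. The livers were higher, at 84.9, 60.6, 59.8, 80.8 and 102.5 CPM, and only Aldafermin+MYC replicate 3 reached into their range.

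Among the RNA-binding effectors, Ifit1 was at 2.38, 2.06, 8.30, 6.46 and 2.24 CPM in Aldafermin+MYC tumors, all below the liver values of 20.8, 23.7, 10.8, 9.56 and 22.7 CPM. In FGF19+MYC tumors it was at 1.95, 12.6, 3.95, 2.64 and 7.21 CPM, and in sgTrp53+MYC tumors at 3.15, 11.9, 20.6, 1.10 and 2.78 CPM. Replicate 2 of the former and replicates 2 and 3 of the latter overlapped the livers. Ifit3 was at 5.51, 4.24, 20.1, 12.3 and 4.55 CPM in Aldafermin+MYC tumors, at 4.47, 16.3, 5.66, 5.52 and 10.8 CPM in FGF19+MYC tumors and at 6.77, 13.3, 23.4, 2.40 and 4.10 CPM in sgTrp53+MYC tumors. The livers held 24.5, 26.4, 17.3, 21.4 and 31.8 CPM of Ifit3, above every FGF19+MYC tumor.

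Ifit2, the third RNA-binding effector, ran on both sides of the liver values in each tumor group. Its CPM ran from 1.68 to 17.1 in Aldafermin+MYC tumors, from 2.96 to 14.0 in FGF19+MYC tumors and from 3.02 to 19.9 in sgTrp53+MYC tumors, around the liver range of 5.04 to 8.37. Oasl2, a member of the oligoadenylate synthetase-like family, spread from 1.04 to 23.1 CPM in Aldafermin+MYC tumors, 22.3 times between the lowest and the highest mouse, against 1.35 times in liver (8.88 to 11.98 CPM). In sgTrp53+MYC tumors it spread from 2.29 to 31.3 CPM, and in FGF19+MYC tumors from 3.35 to 14.1 CPM.

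Rsad2 was at 5.11 to 17.8 CPM in Aldafermin+MYC, 3.29 to 16.1 CPM in FGF19+MYC and 4.22 to 27.6 CPM in sgTrp53+MYC tumors, with livers at 9.01 to 16.4 CPM. Mx1 was low throughout, at 0.614 to 7.51 CPM in the tumors and 1.43 to 2.90 CPM in the livers. Ifi44 was at 0.870 to 6.96 CPM in Aldafermin+MYC, 1.00 to 6.04 CPM in FGF19+MYC and 1.17 to 12.7 CPM in sgTrp53+MYC tumors. Its livers, at 6.32 to 10.6 CPM, lay above all FGF19+MYC tumors.

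Usp18, the brake, had a different order of levels. It was at 40.4, 30.5, 23.4, 24.3 and 41.2 CPM in Aldafermin+MYC tumors, at 52.1, 39.8, 42.0, 39.998 and 34.7 CPM in FGF19+MYC tumors and at 39.2, 55.2, 39.6, 30.7 and 40.7 CPM in sgTrp53+MYC tumors. The livers were at 19.4, 18.3, 17.1, 20.1 and 22.8 CPM, below every tumor library of every group. Its lowest tumor value, 23.4 CPM, was in Aldafermin+MYC replicate 3, the library of that group with the highest Isg15, Ifit1, Ifit2, Ifit3, Irf7, Oasl2, Rsad2 and Mx1.

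**Figure D1:**
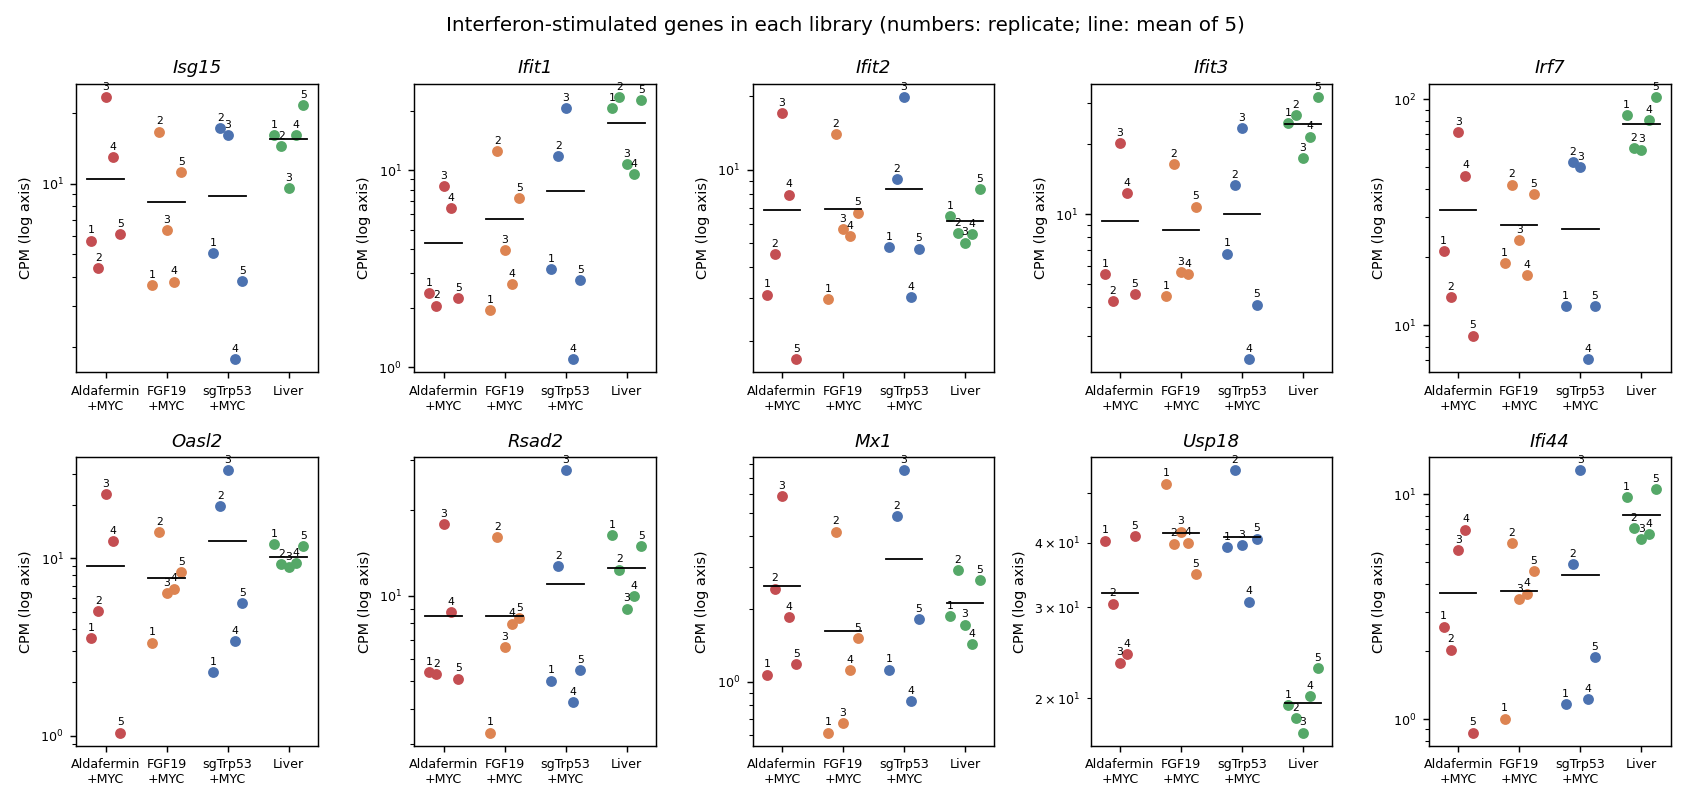
CPM of each gene on a log axis in the 4 groups; each point is 1 library with its replicate number beside it, and the line is the mean of 5. In 9 panels the tumor points are scattered from below to within or above the liver points, while in the Usp18 panel all 15 tumor points lie above the 5 liver points.

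The spread between mice was compared with that of all tested genes. The SD of log2 CPM of the 9 genes other than Usp18 was 0.77 to 1.70 in Aldafermin+MYC tumors, where the median SD over all 14333 genes was 0.40. It was 0.60 to 1.08 in FGF19+MYC tumors (median of all genes 0.32) and 1.05 to 1.68 in sgTrp53+MYC tumors (median 0.45). In liver it was 0.20 to 0.63 (median 0.25). The SD of Usp18 was below the median of all genes in each group, with 0.39, 0.21, 0.30 and 0.16 in Aldafermin+MYC, FGF19+MYC, sgTrp53+MYC and liver.

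The 9 genes rose and fell together from mouse to mouse. With the group means removed, Pearson's r between the log2 CPM of any pair of the 9 was 0.775 to 0.965, with a median of 0.879 over 36 pairs (n = 20 libraries). For Usp18 and each of them r was between -0.362 and -0.0276, with a median of -0.14. These values are a description over libraries that share their depth and scaling between genes.

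**Figure D2:**
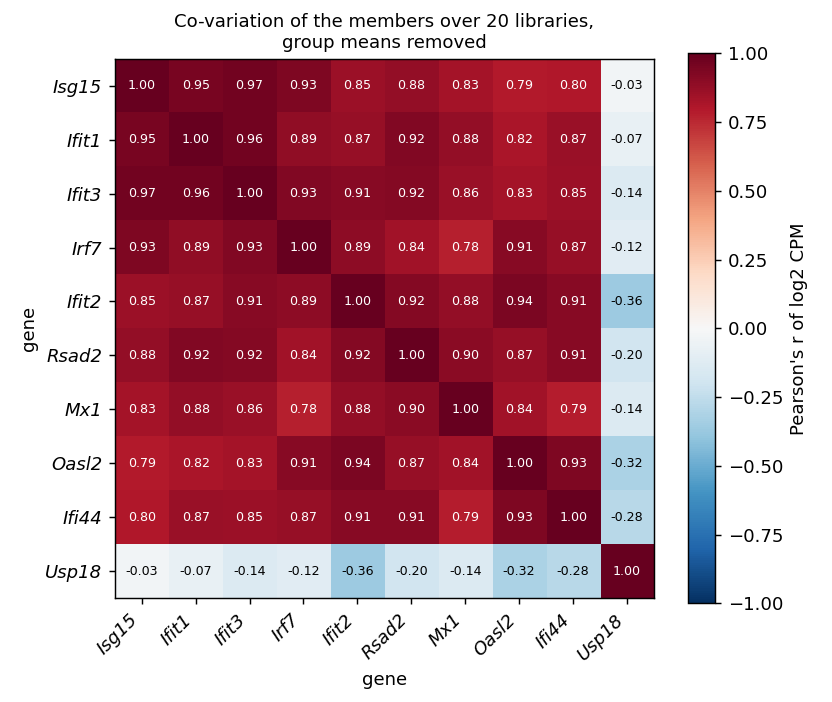
Pearson's r of log2 CPM between each pair of the 10 genes over 20 libraries, after subtraction of the group means (red, positive; blue, negative). The block of 9 genes holds values of 0.775 to 0.965, and the Usp18 row and column hold values of -0.362 to -0.0276.

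The mean log2 CPM of the 9 genes put each library on one scale. It was 2.54 ± 1.05 in Aldafermin+MYC tumors, from 1.41 in replicate 5 to 4.00 in replicate 3. It was 2.56 ± 0.82 in FGF19+MYC tumors, from 1.55 in replicate 1 to 3.72 in replicate 2, and 2.62 ± 1.33 in sgTrp53+MYC tumors, from 1.21 in replicate 4 to 4.36 in replicate 3 (SD, n = 5 each). The livers stood at 3.60 ± 0.31, from 3.21 to 4.00. Each tumor group thus reached the lowest liver or above, in FGF19+MYC tumors with replicate 2 alone, and held libraries far below it. The ranges of the 3 tumor groups overlapped.

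**Figure D3:**
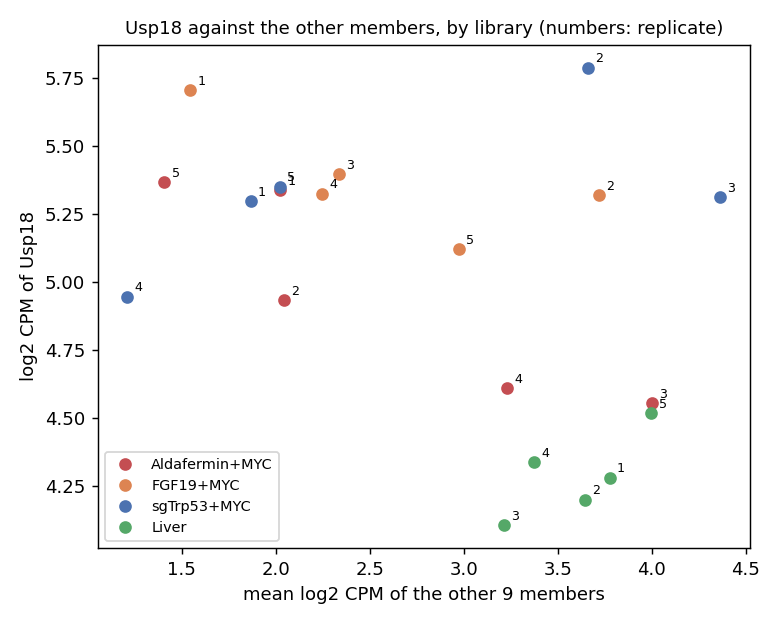
log2 CPM of Usp18 against the mean log2 CPM of the other 9 genes, 1 point per library with its replicate number, colored by group. The livers form a compact cluster at high mean (3.21 to 4.00) and low Usp18 (4.10 to 4.52), and the tumors spread along the horizontal axis at higher Usp18.

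Genes outside the list that followed the 10 members were sought over all tested genes, as the highest Pearson's r to the mean of the members' standardized log2 CPM with the group means removed (n = 20 libraries). The 10 closest, with r of 0.93 to 0.96, were Ifit3b, Gbp3, Oas1a, Gbp2, Xaf1, Rtp4, Zbp1, Trim34a, Oas1g and Oas2. Of these, 7 stood on a list of 65 other classical interferon-stimulated genes, and Ifit3b shares sequence with Ifit3 as given above. An r over 0.5 was found for 54 of the 63 tested genes of that list (85.7%), for all 18 tested genes on a list of interferon-gamma-leaning GTPases and factors, and for 1672 of all 14333 genes (11.7%). The genes closest to Usp18, chosen after their values were seen, were Sdr39u1 (r = 0.87), the mitochondrial ribosomal protein gene Dap3 (r = 0.84) and the respiratory chain gene Ndufa10 (r = 0.82), none of which is a classical interferon-stimulated gene.

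Markers of other cells moved with the mean of the 9 genes inside groups. The leukocyte gene Ptprc (CD45) correlated with it at r = 0.75, the summed CPM of 10 T and NK cell markers at r = 0.78, of 9 dendritic cell markers at r = 0.73, of 6 stellate cell and fibroblast markers at r = 0.69, of 6 endothelial markers at r = 0.60 and of 11 macrophage markers at r = 0.48 (log2 scale, group means removed, n = 20 libraries). The summed hepatocyte markers (8 genes, r = 0.05), monocyte and neutrophil markers (9 genes, r = 0.14) and B and plasma cell markers (5 genes, r = 0.20) moved little with it. The sum of the tumor markers Afp and Gpc3 was at r = -0.33. The monocyte and neutrophil sum joins genes that moved in opposite directions. For its 7 tested genes, r to the standardized mean of the 10 members ran from -0.45 to 0.90, and 3 were over 0.5. The other sums were mixed too. For the 11 macrophage genes this r ran from -0.02 to 0.64, with 3 over 0.5. It ran from 0.16 to 0.66 for the 6 endothelial genes (3 over 0.5). For the 6 stellate cell and fibroblast genes it ran from 0.25 to 0.75 (4 over 0.5). Ptprc was at 26.0 CPM in Aldafermin+MYC replicate 3 and 24.3 CPM in sgTrp53+MYC replicate 3, which had the highest member means, and at 7.31 CPM in sgTrp53+MYC replicate 4, which had the lowest. It was at 8.83 CPM in sgTrp53+MYC replicate 2, a library with a high member mean of 3.66. The dendritic and T and NK lists rest on few reads: 3 of 9 and 3 of 10 genes passed the filter, and their sums were 2.80 to 15.4 CPM and 3.30 to 19.7 CPM in tumors, against 14.6 to 18.3 CPM and 5.52 to 8.81 CPM in livers. No marker was at 0 in every library. The part of these cells in the members' levels was not tested.

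Between the tumors driven by FGF19 and by its analog Aldafermin, none of the 10 genes passed the test (edgeR's quasi-likelihood test, adjusted over 14333 genes), and 0% of all tested genes did. The largest difference was 0.61 ± 0.63 (log2, SE) for Mx1, with a 95% interval of -0.71 to 1.93, and the nearest to 0 was Rsad2, with an interval of -1.05 to 1.05. For Isg15 the interval was -0.89 to 1.55 and for Ifit1 -1.80 to 0.99, so that both reached past a log2 difference of 1. Usp18 was lower with Aldafermin, by -0.38 ± 0.18 on the log2 scale with an interval of -0.75 to -0.02, but its unadjusted p of 0.042 became 0.66 after adjustment by the Benjamini-Hochberg method in edgeR, and 7.31% of all genes had an unadjusted p below 0.05. Both groups overlapped for each of the 10 genes, while 1.46% of all genes had no overlap.

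The members of the sgTrp53+MYC tumors were compared with each of the other tumor groups. None of the 10 genes passed the test against Aldafermin+MYC tumors, where 17.7% of all genes did (10.2% higher and 7.53% lower in Aldafermin+MYC), and none against FGF19+MYC tumors, where 15.8% did (7.97% higher and 7.78% lower in FGF19+MYC). Against Aldafermin+MYC tumors the smallest adjusted p was 0.16, for Usp18 (log2 difference Aldafermin+MYC minus sgTrp53+MYC of -0.36 ± 0.18, SE). Against FGF19+MYC tumors it was 0.31, for Mx1 (-0.99 ± 0.63, FGF19+MYC minus sgTrp53+MYC), whereas Usp18 was at 0.02 ± 0.18. No member had an unadjusted p below 0.05 in either comparison, where 32.2% and 30.6% of all genes had one, and no member separated the groups by range, as 9.75% and 10.9% of all genes did. The median log2 difference of the 10 genes was -0.32 for Aldafermin+MYC minus sgTrp53+MYC and -0.25 for FGF19+MYC minus sgTrp53+MYC tumors, the sgTrp53+MYC side being the higher, beside -0.01 and -0.03 over all tested genes.

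Against liver, Usp18 was higher in every tumor group and Irf7 and Ifit3 were lower in every tumor group. In Aldafermin+MYC tumors 1 of 10 members was higher and 3 were lower, where 70.3% of all tested genes changed, 38.4% higher and 31.9% lower. In FGF19+MYC tumors again 1 was higher and 3 were lower (69.7% of all genes changed, 36.9% higher and 32.9% lower). In sgTrp53+MYC tumors 1 was higher and 2 were lower (69.9% of all genes, 36.9% higher and 33% lower). The share of members called was thus below the share of all genes in each comparison. At an unadjusted p below 0.05 the members numbered 4, 4 and 3, beside 72.4%, 72% and 72.1% of all genes. Members without overlap between tumors and livers numbered 2 (Ifit1 and Usp18), 4 (Ifit3, Irf7, Usp18 and Ifi44) and 2 (Irf7 and Usp18), beside 58.8%, 62.5% and 56.2% of all genes. The 3 comparisons share the same 5 livers. The summed hepatocyte markers were at 4209 to 29676 CPM in tumors and 184176 to 227782 CPM in livers, and the summed macrophage markers at 220 to 344 CPM in sgTrp53+MYC tumors, 427 to 1208 CPM in the other tumors and 574 to 957 CPM in livers; their part in these differences was not tested.

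The rise of Usp18 was 0.71 ± 0.18 on the log2 scale (SE), 1.63-fold, in Aldafermin+MYC tumors (edgeR, adjusted p = 0.0015). It was 1.09 ± 0.18, 2.13-fold, in FGF19+MYC tumors (edgeR, adjusted p = 2.27e-05) and 1.07 ± 0.18, 2.10-fold, in sgTrp53+MYC tumors (edgeR, adjusted p = 2.65e-05). The values of the tumors and of the livers did not overlap in any of the 3 comparisons. Usp18 passed the test in all 20 fits that left out 1 library and under all 9 other settings in each of these comparisons.

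Irf7 was lower by a log2 difference of -1.27 ± 0.56 in Aldafermin+MYC (edgeR, adjusted p = 0.0495), -1.48 ± 0.56 in FGF19+MYC (adjusted p = 0.025) and -1.54 ± 0.56 in sgTrp53+MYC tumors (adjusted p = 0.021). The first of these calls was held by 7 of the 20 fits that left out 1 library: it was lost without Aldafermin+MYC replicate 1, 2 or 5, without any FGF19+MYC library and without any liver, with adjusted p up to 0.12. It was also lost with upper-quartile factors, with library totals and without the filter on low counts. In FGF19+MYC tumors the call was lost without replicate 1, 3 or 4 or liver replicate 5, and in sgTrp53+MYC tumors without replicate 5, where the highest adjusted p was 0.061 and 0.053. The call in sgTrp53+MYC tumors was also lost without the filter.

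Ifit3 was lower by -1.38 ± 0.55 in Aldafermin+MYC (edgeR, adjusted p = 0.031), -1.51 ± 0.55 in FGF19+MYC (adjusted p = 0.021) and -1.28 ± 0.55 in sgTrp53+MYC tumors (adjusted p = 0.043). The calls were kept in 16, 18 and 12 of the 20 fits without 1 library and under 7, 8 and 5 of the 9 other settings. All 3 were lost with library totals, those in Aldafermin+MYC and sgTrp53+MYC tumors also without the filter on low counts, and that in sgTrp53+MYC tumors also with upper-quartile factors and with only both compared groups in the model. Among the fits without 1 library, they were lost without Aldafermin+MYC replicate 1, 2 or 5 or liver replicate 5 in the first comparison, and without FGF19+MYC replicate 1 or 4 in the second. In the third they were lost without sgTrp53+MYC replicate 1, 4 or 5, without liver replicate 1, 2, 4 or 5, and without Aldafermin+MYC replicate 5.

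Ifit1 was lower by -2.03 ± 0.69 in Aldafermin+MYC tumors (edgeR, adjusted p = 0.013), the call kept in all 20 fits without 1 library, and by -1.63 ± 0.68 in FGF19+MYC tumors (adjusted p = 0.039), the call lost without FGF19+MYC replicate 1, 3 or 4 or liver replicate 1, 2 or 5 and without the filter on low counts. In sgTrp53+MYC tumors its difference of -1.15 ± 0.67 did not pass (adjusted p = 0.13). Without sgTrp53+MYC replicate 3, where Ifit1 was at 20.6 CPM, the difference was -1.89 (adjusted p = 0.018), and the number of members called in that comparison was 5 in place of 3.

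The other 6 genes did not pass against liver in any tumor group with all 20 libraries in the model and TMM scaling. With only both compared groups in the model, Ifi44 passed in Aldafermin+MYC and FGF19+MYC tumors (edgeR adjusted p = 0.048 and 0.011) and Isg15 in FGF19+MYC tumors (0.048). Without sgTrp53+MYC replicate 3, Ifi44 passed in sgTrp53+MYC tumors (-1.81, adjusted p = 0.0099). Ifi44 was at -1.16 ± 0.63, -1.11 ± 0.63 and -0.87 ± 0.63 (log2 difference, SE) in Aldafermin+MYC, FGF19+MYC and sgTrp53+MYC tumors, and Isg15 at -0.57 ± 0.58, -0.90 ± 0.59 and -0.82 ± 0.58. Rsad2 was at -0.56 ± 0.50, -0.56 ± 0.50 and -0.18 ± 0.50. Oasl2, Ifit2 and Mx1 lay between -0.39 and 0.61. Over the 10 genes the median log2 difference from liver was -0.57, -0.73 and -0.50 in the same order of groups, beside 0.13, 0.06 and 0.07 over all tested genes.

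**Figure D4:**
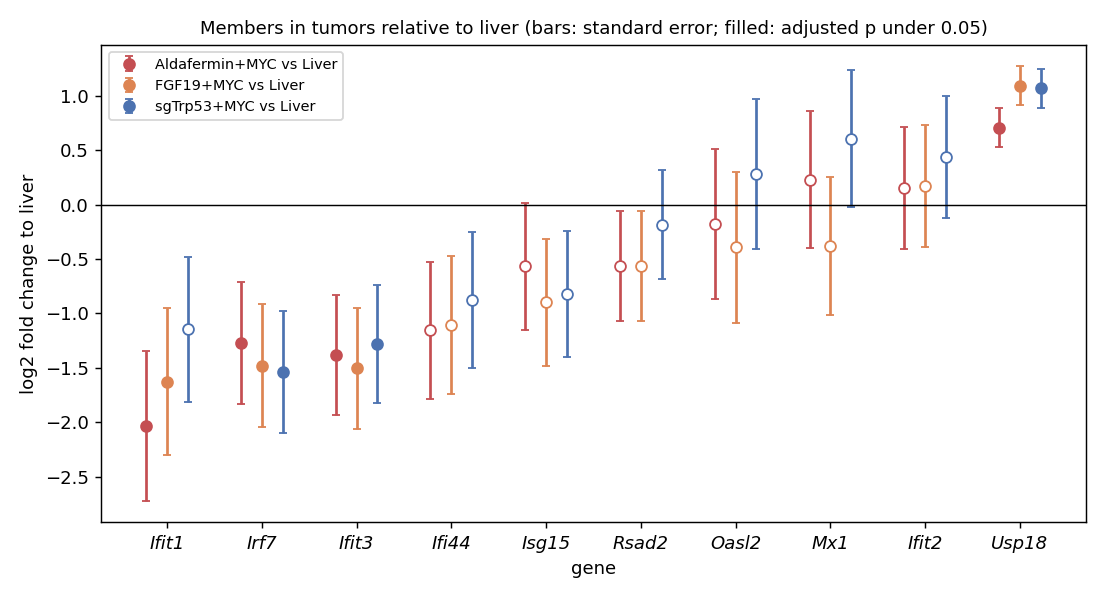
log2 fold change of each gene between each tumor group and liver with TMM scaling, with its standard error; filled points passed the test at an adjusted p of 0.05, open points did not. Usp18 is above 0 in each group, Irf7 and Ifit3 are below 0 with filled points in each group, and Ifit1 is filled in 2 of 3.

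All of these differences are relative to the TMM scaling. With the library totals alone, the median of all genes against liver moved from 0.13, 0.06 and 0.07 to 0.97, 0.91 and 0.95 (log2), and with it the sign of the members' median, to 0.32, 0.15 and 0.43. Usp18 then still passed in each comparison, and the lower calls of Irf7, Ifit3 and Ifit1 were lost. In sgTrp53+MYC tumors Ifit2 and Mx1 passed as higher with library totals (log2 differences 1.37 and 1.56, edgeR adjusted p = 0.046 and 0.042), so that the members called went from 1 higher and 2 lower to 3 higher and 0 lower. Over all genes 60.1%, 58.4% and 59.5% were higher and 16.8%, 17.1% and 16.9% lower than in liver under this scaling. Relative to the median of all genes the members stood at -0.69, -0.79 and -0.57 with TMM and at -0.65, -0.76 and -0.52 with library totals.

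The other genes of the pathway were taken as lists by role. For each list, the counts against liver are to be read beside all tested genes. With TMM 31.9% to 33% of these were lower and 36.9% to 38.4% higher. With library totals 16.8% to 17.1% were lower and 58.4% to 60.1% higher. Of 21 interferon genes, type I, II and III ligands together, none passed the filter. They were listed at 0 in all 20 libraries for 14 genes, and 5 others, Ifnb1 among them, had at most 3 counts in any library. Ifng, the type II interferon, had at most 11 counts in a library; these ligands are named after their values were seen. Ifnk had 98 counts in a single library, sgTrp53+MYC replicate 2, and 0 in the rest. Of 5 tested receptor chains, 1, 2 and 2 were higher and 3, 3 and 3 lower than in liver in Aldafermin+MYC, FGF19+MYC and sgTrp53+MYC tumors (4, 2 and 2 higher and 1, 1 and 1 lower with library totals). Ifnar2, a subunit of the type I receptor, was lower than in liver (100.7 ± 11.6 CPM, SD, n = 5) in Aldafermin+MYC (37.5 ± 3.73), FGF19+MYC (33.1 ± 2.04) and sgTrp53+MYC tumors (35.8 ± 3.65), with log2 differences of -1.43 ± 0.11, -1.61 ± 0.11 and -1.49 ± 0.11 (SE). Il10rb, a subunit of the type III receptor, was higher than in liver (13.6 CPM) in the same groups, at 19.9, 22.3 and 34.5 CPM (edgeR, adjusted p = 0.0057, 7.29e-04 and 5.78e-07). It was the only tested receptor gene that passed between tumor groups, lower in Aldafermin+MYC and FGF19+MYC than in sgTrp53+MYC tumors by -0.80 ± 0.16 and -0.63 ± 0.16.

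All 6 genes on the list of JAK-STAT and ISGF3 components (Jak1, Jak2, Tyk2, Stat2, Stat3 and Irf9) were lower than in liver in each tumor group, with median log2 differences of -1.45, -1.45 and -1.07; with library totals 4, 3 and 1 of the 6 were lower and none was higher. Irf9, the DNA-binding subunit of ISGF3, was at 10.6 ± 4.90 CPM in Aldafermin+MYC and 12.9 ± 5.61 CPM in sgTrp53+MYC tumors against 46.8 ± 6.58 CPM in liver (log2 difference -2.14 ± 0.34 and -1.86 ± 0.34). Stat2 was at 21.0 ± 8.31, 19.7 ± 4.70 and 36.4 ± 10.7 CPM in the 3 tumor groups and 62.3 ± 6.80 CPM in liver. Stat2 was also lower in Aldafermin+MYC and FGF19+MYC than in sgTrp53+MYC tumors, by -0.80 ± 0.26 and -0.88 ± 0.26 (edgeR, adjusted p = 0.036 and 0.025). The first of these calls was lost with library totals and with only these groups in the model (adjusted p = 0.056 and 0.12). Within the list, the correlation with the members' profile inside groups ran from r = 0.342 for Stat3 to r = 0.898 for Irf9 (n = 20 libraries).

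On the list of 65 other classical interferon-stimulated genes, 63 were tested. In Aldafermin+MYC, FGF19+MYC and sgTrp53+MYC tumors 34, 34 and 34 of them were lower and 6, 4 and 5 were higher than in liver, with median log2 differences of -1.03, -1.25 and -0.84. With library totals 19, 17 and 13 were lower and 14, 11 and 16 were higher, where 16.8%, 17.1% and 16.9% of all genes were lower and 60.1%, 58.4% and 59.5% higher. Parp9, an ADP-ribosyltransferase family member, was lower in Aldafermin+MYC and FGF19+MYC tumors (26.2 and 21.9 CPM against 68.2 CPM). In sgTrp53+MYC tumors its mean was 37.8 CPM, also below that of the livers. Parp9 was lower in FGF19+MYC than in sgTrp53+MYC tumors by -0.79 ± 0.18 (edgeR, adjusted p = 0.0052). Pnpt1, a mitochondrial RNA-degrading enzyme, was higher in all tumor groups (89.3, 95.8 and 131 CPM against 27.2 CPM). Between the tumor groups, 3 were higher and 3 lower in Aldafermin+MYC than in sgTrp53+MYC tumors, and 1 was higher and 2 lower in FGF19+MYC than in sgTrp53+MYC tumors. Of all tested genes 17.7% and 15.8% passed in these comparisons. Bst2 (tetherin, which holds budding virus at the cell surface) was about as high in Aldafermin+MYC (191 CPM) as in FGF19+MYC (183 CPM) and lower in sgTrp53+MYC tumors (95.7 CPM), by log2 differences of 1.00 ± 0.20 and 0.93 ± 0.20 (edgeR, adjusted p = 0.0022 and 0.0039).

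The list of interferon-gamma-leaning genes (18 of 19 tested) had 8, 9 and 8 genes lower and 1, 0 and 0 higher than in liver in Aldafermin+MYC, FGF19+MYC and sgTrp53+MYC tumors; with library totals 5, 4 and 2 were lower and 2, 1 and 2 were higher. Iigp1, an immunity-related GTPase, was at 18.4, 30.9 and 29.8 CPM in the tumors and 442 CPM in liver, by log2 differences of -4.59 ± 0.75, -3.84 ± 0.72 and -3.89 ± 0.72. Of 22 tested sensors and adaptors of nucleic acid recognition, 9, 13 and 12 were lower and 2, 2 and 2 higher (2, 2 and 3 lower and 7, 5 and 4 higher with library totals). Beside both lists stand 31.9%, 32.9% and 33% of all genes lower and 38.4%, 36.9% and 36.9% higher with TMM. Mavs, the mitochondrial adaptor of the RNA sensors, was at 50.6, 51.8 and 57.7 CPM against 174 CPM in liver. Of the 22, 5 were higher and 2 lower in Aldafermin+MYC than in sgTrp53+MYC tumors, beside 17.7% of all genes that passed. In FGF19+MYC tumors 2 were higher and 4 lower than in sgTrp53+MYC tumors, beside 15.8% of all genes. Irf3 was higher in both comparisons (0.62 ± 0.10 and 0.60 ± 0.10) and Tbk1 lower (-0.64 ± 0.13 and -0.54 ± 0.13).

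Of the brakes on interferon signalling and the nucleases that clear nucleic acids, 14 of 16 were tested, with Usp18 left to the members. In the same order, 5, 5 and 6 were higher and 6, 7 and 7 were lower than in liver (7, 7 and 7 higher and 4, 5 and 5 lower with library totals). Of all tested genes 38.4%, 36.9% and 36.9% were higher and 31.9%, 32.9% and 33% lower with TMM. Ptpn2, a phosphatase of JAK and STAT proteins, was higher by 1.40 ± 0.15, 1.46 ± 0.15 and 1.84 ± 0.15 on the log2 scale, and Rnaseh2b, a subunit of RNase H2, by 2.39 ± 0.25, 2.43 ± 0.25 and 2.66 ± 0.25. Irf2, a repressor that binds the ISRE, was lower in Aldafermin+MYC and sgTrp53+MYC tumors by -2.25 ± 0.23 and -1.93 ± 0.23. Its FGF19+MYC value is left out by the rule for naming genes, which does not mean that it was unchanged there.

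On the list of 6 genes of ISG15 and its attachment or removal, 1 was higher and 3 were lower than in liver in each tumor group, and 2 did not pass. With library totals 2, 2 and 2 were higher and 3, 3 and 2 lower. Usp18, which removes it, was higher than in liver as given above. Uba7, the activating enzyme, was at 5.998 ± 4.01, 5.73 ± 2.70 and 3.85 ± 2.57 CPM in Aldafermin+MYC, FGF19+MYC and sgTrp53+MYC tumors against 24.3 ± 2.27 CPM in liver (log2 differences -2.02 ± 0.46, -2.08 ± 0.46 and -2.65 ± 0.47). Ube2l6, the conjugating enzyme, was at 38.2 ± 10.8, 26.5 ± 5.80 and 19.1 ± 4.96 CPM against 95.3 ± 9.28 CPM. Ube2l6 was higher in Aldafermin+MYC than in sgTrp53+MYC tumors by 1.00 ± 0.20 (edgeR, adjusted p = 0.0021). Herc6, the main mouse ligase, was at 5.71 ± 2.57, 4.03 ± 0.923 and 10.9 ± 5.92 CPM against 18.9 ± 5.04 CPM, and its lower level in sgTrp53+MYC tumors (-0.78 ± 0.34, adjusted p = 0.047) turned to 0.13 with library totals. Between tumor groups, Herc6 was lower in FGF19+MYC than in sgTrp53+MYC tumors by -1.44 ± 0.35 (edgeR, adjusted p = 0.0091). Isg15 itself and Trim25 did not pass in any comparison with liver.

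**Figure D5:**
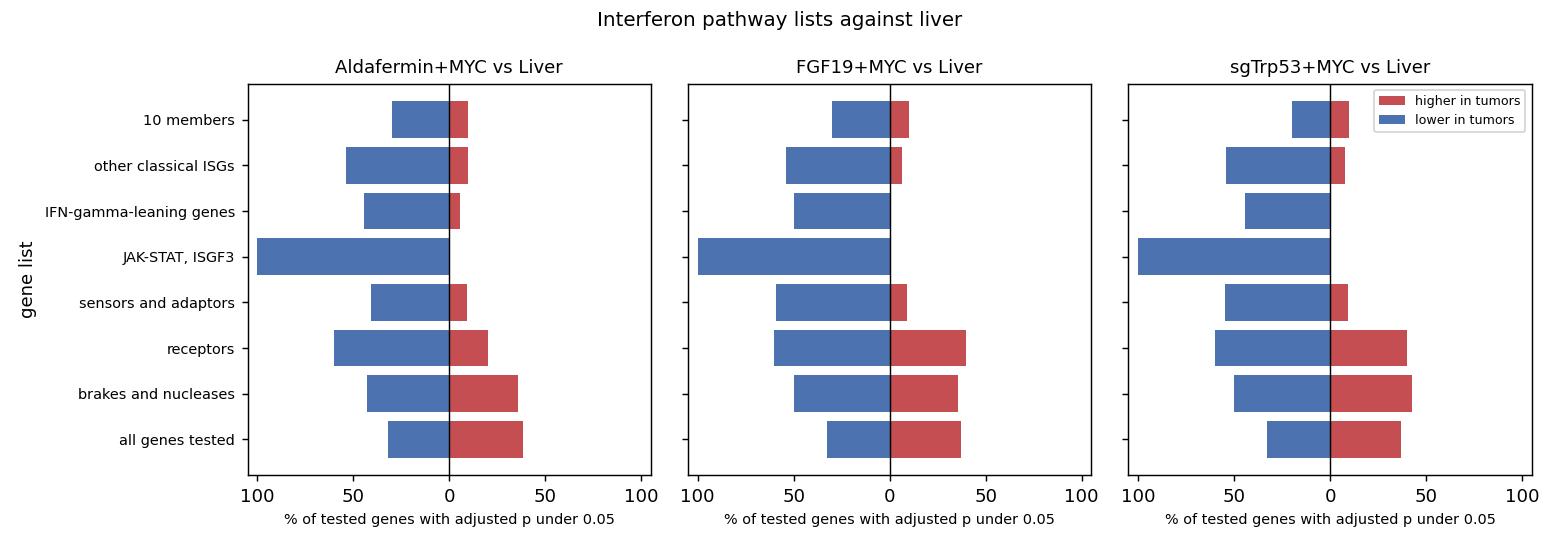
Percent of the tested genes of each list that passed the test against liver, to the right where higher in tumors and to the left where lower, for the 3 tumor groups, with all tested genes in the last row. The 6 JAK-STAT and ISGF3 genes are all on the lower side, and more of the 63 other classical genes are lower (34 in each group) than higher (6, 4 and 5).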

How the data were processed

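RNA from snap-frozen tumors and livers was sequenced by the authors as stranded mRNA libraries (TruSeq, 150-base paired-end reads; bcl2fastq 2.20.0.422 per the labels), aligned with HISAT2 to mm39 and counted with htseq-count on the RefSeq annotation. The version and strand setting of the counting are not given in the sources used here. The deposited values are raw counts per gene in 2 tables, of 15 and 5 libraries, with 5 summary lines (33.7% to 56.2% of all lines' counts per library) that were removed.

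The 14333 genes that reached 1 CPM in 5 or more libraries were scaled by TMM and fitted with edgeR 4.0.16 (limma 3.58.1, R 4.3.3) in one quasi-likelihood model of the 4 groups. All 6 pairwise contrasts were tested, with Benjamini-Hochberg adjustment over all genes and a threshold of 0.05. SE is the log2 difference over the square root of F, and log2 CPM has a prior count of 2. The members and lists were chosen with earlier results of these data known. One gene of a pathway list is not reported here. All members are named; of each other list, names were limited to the up to 3 genes per comparison with the smallest adjusted p past the threshold and a mean of at least 1 CPM in one of both groups, and of genes like the members to the 10 with the highest r. Other names are marked as chosen after their values were seen. Alternatives were DESeq2 1.42.0, edgeR's likelihood ratio test, other scalings, filters and models, a replicate block, and each library left out. The symbols Rigi, Mb21d1 and Tmem173 are absent, and Ddx58, Cgas and Sting1 were used for these genes. On simulated counts for Aldafermin+MYC against liver, the test found 33 of 100 genes changed by a log2 of 1 and 76 of 100 changed by 2, with 1 false call among 14333 genes. Only these genes were changed in the simulation, whereas 70.3% of all genes passed in the data. The numbers found therefore do not give the power or the false calls of the comparison on the data. Libraries differed by more than counting noise (chi-square per degree of freedom at least 15.4 over 40 pairs within groups).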

Additional observations from a re-analysis of the deposited data

How the results depend on the processing

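The counts of members called between tumor groups were 0 under every alternative run. Against liver, the count for Aldafermin+MYC tumors went from 4 to 1 with library totals alone and to 2 without the filter on low counts, that for FGF19+MYC tumors from 4 to 1 with library totals, and that for sgTrp53+MYC tumors from 3 to 1 without the filter. Smaller changes were 3 and 2 for Aldafermin+MYC and sgTrp53+MYC tumors with upper-quartile factors, 3 for FGF19+MYC tumors without the filter, and 5, 6 and 2 for the 3 groups with only both compared groups in the model. The sgTrp53+MYC count was 3 with library totals too, with 2 calls lost and 2 gained. When single libraries were left out the counts were 2 to 4, 1 to 4 and 1 to 5. The FGF19+MYC count was 1 without FGF19+MYC replicate 1 or 4, and the sgTrp53+MYC count was 1 without sgTrp53+MYC replicate 5 and 5 without replicate 3. The mean log2 CPM of the 10 members in liver was 3.67, and 3.03 with library totals. Of the 10 genes most like the members, 5 were kept when the group means were not removed.

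Log2 differences changed sign as follows, and the cause was not tested beyond the shift of all genes given for library totals. Of 4060 values of named genes under alternatives, 98 that passed in neither fit did so, along with 4 of called genes. With library totals, the 4 were Ifnar1 in Aldafermin+MYC tumors (0.44), Ifngr2 in FGF19+MYC and sgTrp53+MYC tumors (0.24 and 0.32) and Herc6 in sgTrp53+MYC tumors (0.13), all against liver. Against liver, library totals also turned Isg15, Oasl2 and Rsad2 to 0.32, 0.73 and 0.32 in Aldafermin+MYC tumors, Oasl2, Rsad2 and Mx1 to 0.48, 0.32 and 0.51 in FGF19+MYC tumors, and Isg15, Rsad2 and Ifi44 to 0.11, 0.76 and 0.089 in sgTrp53+MYC tumors. Without the filter Rsad2 in sgTrp53+MYC tumors was 0.094 against liver. Between Aldafermin+MYC and FGF19+MYC tumors Ifit2 was 0.015 and 0.00406 with upper-quartile factors and library totals, and Rsad2 was 0.028 and 0.0016 with these, 0.00103 with the likelihood ratio test and 0.00673 with the stricter filter. Between FGF19+MYC and sgTrp53+MYC tumors Irf7 was -0.00989 and -0.0527 and Usp18 was -0.0313 and -0.0822 with library totals and without the filter.

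When single libraries were left out, signs changed between Aldafermin+MYC and FGF19+MYC tumors for Isg15 (-0.20 to 0.74), Ifit1 (-0.79 to 0.12), Ifit2 (-0.69 to 0.41), Ifit3 (-0.37 to 0.50), Irf7 (-0.32 to 0.43), Oasl2 (-0.50 to 0.54), Rsad2 (-0.47 to 0.37) and Ifi44 (-0.42 to 0.20). Between Aldafermin+MYC and sgTrp53+MYC tumors they changed for Isg15 (-0.28 to 0.64), Ifit2 (-0.96 to 0.33), Ifit3 (-0.59 to 0.49), Irf7 (-0.26 to 0.66), Oasl2 (-1.18 to 0.22), Rsad2 (-0.84 to 0.30), Mx1 (-0.98 to 0.20) and Ifi44 (-0.65 to 0.65). Between FGF19+MYC and sgTrp53+MYC tumors they changed for Isg15 (-0.49 to 0.31), Ifit1 (-1.001 to 0.26), Ifit2 (-0.69 to 0.35), Ifit3 (-0.60 to 0.36), Irf7 (-0.19 to 0.45), Oasl2 (-1.001 to 0.0074), Rsad2 (-0.74 to 0.30), Usp18 (-0.0702 to 0.15) and Ifi44 (-0.48 to 0.70). Against liver they changed for Ifit2 (-0.52 to 0.46), Oasl2 (-0.89 to 0.17) and Mx1 (-0.37 to 0.47) in Aldafermin+MYC tumors, for Ifit2 (-0.25 to 0.36) in FGF19+MYC tumors, and for Ifit2 (-0.18 to 0.65), Oasl2 (-0.40 to 0.55) and Rsad2 (-0.87 to 0.024) in sgTrp53+MYC tumors.

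The replicate numbers did not pair the samples: same-numbered libraries of different groups correlated at r = -0.333 to 0.333 over genes, over 0.1 in 6 of 30 pairs. With the replicate number as a block, 4, 4 and 4 members passed against liver, Ifit1 in sgTrp53+MYC tumors being added (-1.65, edgeR adjusted p = 0.040), and 0 between tumor groups. Under this block Oasl2 was -0.0895 between Aldafermin+MYC and FGF19+MYC tumors, Ifit3 was 0.061 between Aldafermin+MYC and sgTrp53+MYC tumors, and Isg15 and Ifi44 were 0.0528 and 0.0896 between FGF19+MYC and sgTrp53+MYC tumors. Against liver it turned Ifit2 and Mx1 to -0.21 and -0.023 in Aldafermin+MYC tumors, Ifit2 to -0.00467 in FGF19+MYC tumors and Oasl2 to -0.38 in sgTrp53+MYC tumors.

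The 21 interferon genes were too low in counts to be tested at this depth. No library stood apart from its group in any of the 40 combinations of gene and group by the gap between an extreme value and its neighbour. Where a pair of libraries was high together, as in the tumor groups, this gap is small and can miss them.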
